A study of Mus musculus with 4 samples.

Results

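The genes described here are 10 transcriptional targets of p53 whose products promote cell death: Pmaip1, Bbc3, Perp, Bax, Fas, Tnfrsf10b, Trp53inp1, Aen, Zmat3 and Eda2r. They were chosen by gene symbol, with earlier results of these data known. All 10 were found among the 18298 genes that the 4 samples list with reads. RNA was sequenced from primary chondrocytes, the cells that make cartilage, grown from the rib cartilage of E18.5 mouse embryos of the C57BL/6 background and taken at passage 1. The mutant samples (n = 2) were Dermo1-Cre;Senp6f/f and the controls (n = 2) were Senp6f/f without Cre, so that every sample carried floxed Senp6 alleles. Senp6 encodes a protease that removes SUMO2/3 from proteins, and Dermo1-Cre expresses Cre from the Dermo1 (Twist2) locus in mesenchymal progenitors of bone and cartilage, so cells outside that lineage keep the gene. The labels do not say whether a sample came from 1 embryo or a pool. The p values therefore set differences against the spread between these samples, whatever its source. That spread was estimated for each gene partly from the other genes tested.

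The p53 protein is a transcription factor that is kept low by MDM2 and accumulates after DNA damage and other stress. Its death-promoting targets act at several places. PUMA (Bbc3) and NOXA (Pmaip1) are BH3-only proteins that neutralise the anti-apoptotic members of the BCL2 family, and BAX then permeabilises the outer mitochondrial membrane. Death receptors at the cell surface, such as FAS and the TRAIL receptor encoded by Tnfrsf10b, form a second arm that activates caspase 8 through the adaptor FADD. In skeletal tissues, excess p53 activity is known to impair growth through arrest or death of progenitor cells.

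The samples had 21007449 to 30983806 reads on the genes tested, and 16617 to 17218 genes with a read. All 10 genes had at least 10 reads in every sample, with counts from 10 to 5098, and all 10 were among the 14123 genes tested with edgeR (quasi-likelihood test, Benjamini-Hochberg adjustment over all 14123). Senp6 itself had an RPKM of 10.8 and 18.0 in the controls and of 12.0 and 8.07 in the mutants, and these gene-level values overlapped. The count includes the exons outside the floxed ones, so it does not measure the deletion. Mutant replicate 2 was the only sample with more than a handful of Xist reads (11354, against 2 to 5), so the mutants differed in female cells. Whether mutant replicate 2 was female or a pool of both sexes is not known. RPKM is the count scaled by gene length and by the reads on genes, and it is the measure used here to compare levels between genes.

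Of the 10 genes, 8 had both mutant samples above both controls and 0 had both below, while the groups overlapped for Bbc3 and Tnfrsf10b. Over all genes tested, 25.4% had both mutants above both controls and 22.8% both below. The largest difference was that of Pmaip1, which was 11.5-fold higher in the mutant, followed by Perp at 4.02-fold, while the other 6 of the 8 differed by 1.26-fold (Bax) to 1.93-fold (Eda2r). No gene reached an adjusted p under 0.05 in edgeR (0% of all genes tested, in either direction), and the smallest adjusted p over all genes was 0.0512. At an unadjusted p under 0.05 in edgeR, 7 of the 10 were higher in the mutant and 0 were lower, beside 9.29% higher and 6.28% lower of all genes tested. With DESeq2, 4 of the 10 passed an adjusted p of 0.05 (Pmaip1, Zmat3, Eda2r and Aen), all of them higher, beside 3.11% of all genes. Blocking on the replicate number in edgeR gave 1 of the 10, which was Pmaip1, beside 0.595% of all genes, and dropping the filter on low counts also gave Pmaip1 alone, beside 1.23%. Without mutant replicate 2, the number higher with an unadjusted p under 0.05 was 3 instead of 7, and the share of all genes was 4.54% instead of 9.29%. Over the 10 genes the log2 fold changes had a median of 0.71, beside 0.01 over all genes tested. With 2 samples against 2, an exact permutation test of 1 gene cannot give a two-sided p below 0.333.

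**Figure D1:**
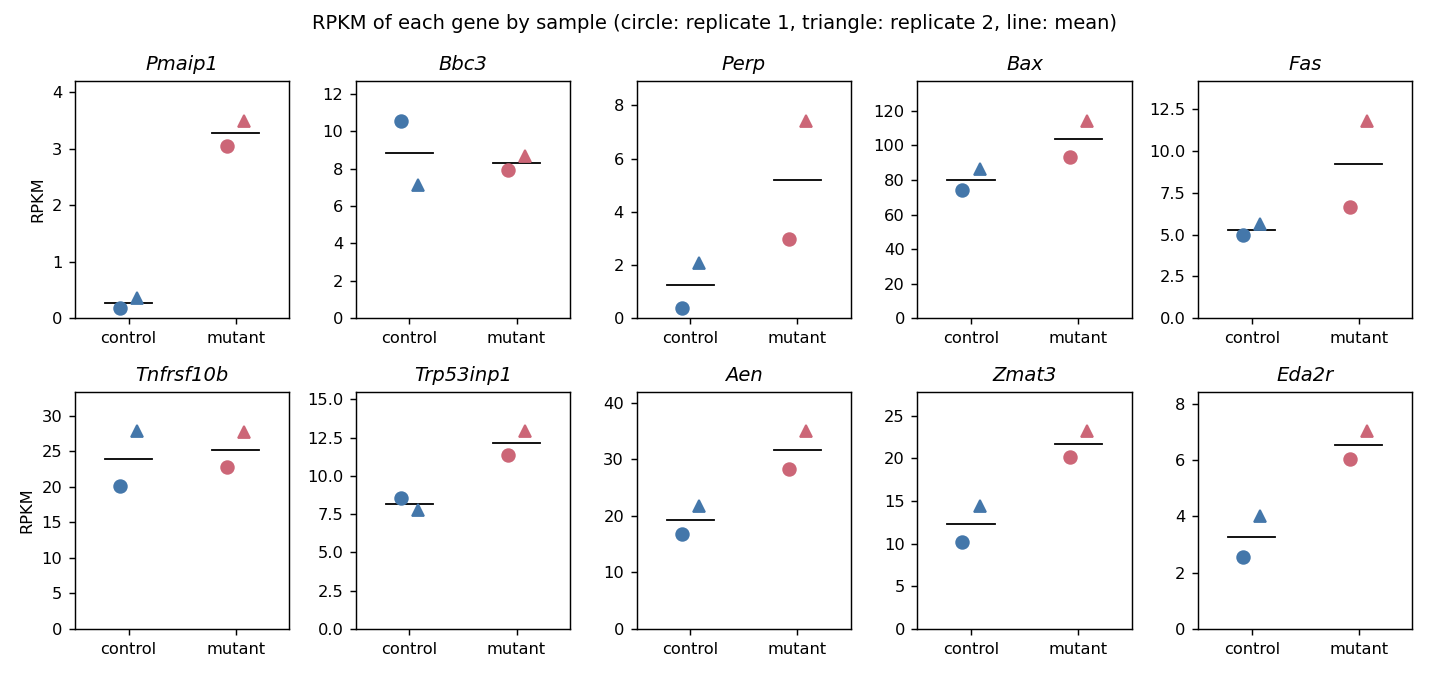
RPKM of the 10 genes in each sample (linear axes from 0, 1 panel per gene). Circles are replicate 1, triangles replicate 2, blue the controls, red the mutants, and the line is the mean of a group. The mutant points lie above the control points in every panel except those of Bbc3 and Tnfrsf10b.

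The levels of the 10 genes spanned a wide range. Bax had the highest RPKM of the 10 in every sample, and it made up 45.5% to 50% of their summed RPKM. Pmaip1 had the lowest in both controls and in mutant replicate 2, and Perp the lowest in mutant replicate 1. In the controls, the mean RPKM of Tnfrsf10b, 24.0 ± 5.45 (SD, n = 2), and of Aen, 19.2 ± 3.44 (SD, n = 2), came next after Bax, and their control ranges overlapped. In the mutants Aen, with 31.6 ± 4.72 (SD, n = 2), stood above Tnfrsf10b, with 25.2 ± 3.54 (SD, n = 2), and these ranges did not overlap. Zmat3, Bbc3, Trp53inp1, Fas, Eda2r and Perp followed in the controls in this order, and of these neighbours the ranges overlapped for Zmat3 with Bbc3 and for Bbc3 with Trp53inp1. In the mutants the order after Tnfrsf10b was Zmat3, Trp53inp1, Fas, Bbc3, Eda2r, Perp and Pmaip1, and of all those neighbours the ranges were apart for Zmat3 with Trp53inp1 and for Bbc3 with Eda2r and overlapped for the others. The sum over the 10 genes was 148.7 and 176.9 in the controls and 202.7 and 251.6 in the mutants.

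A p53 response element is built of a pair of 10-base units, here called p53 decamers, and the windows around the transcription starts of Bax, Aen and Bbc3 are printed to show where the letters of such a unit occur in genes that differed to unlike degrees. Each window is RefSeq sequence of GRCm38.p6 from 250 bases before the listed start to 50 after it, 5′ to 3′ on the strand of the gene. The search was for exact matches to the p53 decamer consensus, which reads the same on both strands. From a table of RefSeq windows, those of 5 of the 10 genes were used (Bbc3, Bax, Fas, Aen and Eda2r), 8 windows in all. No window was used for Pmaip1, Perp, Tnfrsf10b, Trp53inp1 and Zmat3. For the 10 genes, windows on the chromosome of Pmaip1 were not taken, while the share over all windows had no such limit. An exact decamer was present in 3 of the 8 windows, those of Bax and Aen, of which the 2 Aen windows share 1 decamer, and in 8.36% of all 32851 windows of the table. Capitals mark the decamer. The window of Bax is chr7:45466849-45467148 on the minus strand, and its decamer begins 201 bases before the start. The first window of Aen is chr7:78895677-78895976 on the plus strand, with the decamer beginning 10 bases after that start, and its second window overlaps the first. The first of the 3 windows of Bbc3, chr7:16309333-16309632 on the plus strand, is shown without capitals because it holds no exact decamer, nor do the other Bbc3 windows or those of Fas and Eda2r.
Bax: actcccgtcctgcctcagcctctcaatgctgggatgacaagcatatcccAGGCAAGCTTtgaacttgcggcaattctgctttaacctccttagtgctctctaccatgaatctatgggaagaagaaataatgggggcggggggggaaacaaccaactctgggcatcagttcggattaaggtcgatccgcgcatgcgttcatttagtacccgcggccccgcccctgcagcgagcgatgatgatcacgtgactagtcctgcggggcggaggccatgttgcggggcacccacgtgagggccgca
Aen: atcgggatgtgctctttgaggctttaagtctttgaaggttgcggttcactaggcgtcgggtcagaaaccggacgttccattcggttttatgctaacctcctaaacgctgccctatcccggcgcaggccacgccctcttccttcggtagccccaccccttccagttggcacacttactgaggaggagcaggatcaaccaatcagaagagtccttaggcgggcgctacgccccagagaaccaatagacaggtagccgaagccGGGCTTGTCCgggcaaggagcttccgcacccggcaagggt
Bbc3: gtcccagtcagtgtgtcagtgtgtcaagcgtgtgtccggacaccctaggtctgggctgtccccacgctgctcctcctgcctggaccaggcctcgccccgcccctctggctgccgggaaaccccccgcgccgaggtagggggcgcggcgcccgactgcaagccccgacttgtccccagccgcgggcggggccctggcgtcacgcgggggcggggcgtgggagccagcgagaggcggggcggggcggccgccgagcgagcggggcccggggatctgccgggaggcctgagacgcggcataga
These matches are letters only. Units that depart from the consensus in any letter were not searched for, so a window without capitals may still hold a p53 site. No binding of p53 was measured in the files, and the window leaves out introns and more distant sequence.

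Among the genes that act at mitochondria, Pmaip1 (Entrez Gene 58801) encodes the BH3-only protein NOXA, which binds mainly MCL1. There were 10 and 25 reads in the controls (replicate 1 first, as in all pairs of values) and 251 and 262 in the mutants. These are RPKM values of 0.179 and 0.360 against 3.05 and 3.49. The lowest mutant was thus far above the highest control, and the exact Poisson intervals of the counts, which cover counting error only, were 4.8 to 18.4 and 16.2 to 36.9 reads in the controls and 221 to 284 and 231 to 296 in the mutants (95%). The reads covered 36.85% and 64.47% of the length of the gene in the controls and 93.1% and 92.35% in the mutants. The log2 fold change was 3.53 (SE 0.35, edgeR adjusted p = 0.0739). It was the 32nd largest of 14123 and its p was the 5th smallest. The call moved with the method, with an adjusted p of 5.45e-12 in DESeq2, 0.0365 with the replicate block and 0.00425 without a filter on low counts. It was 0.0791 with RLE size factors in edgeR, 0.0703 with at least 10 counts in every sample, and 0.0737 and 0.0683 with limma on log2(RPKM + 1) and log2(RPKM + 0.1), where the log2 fold change was 1.75 and 3.23. Without each sample in turn the log2 fold change in edgeR lay between 3.16 and 4.08.

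Bbc3 (Entrez Gene 170770) encodes PUMA, a BH3-only protein that binds all anti-apoptotic BCL2 proteins. Its RPKM was 10.6 and 7.11 in the controls and 7.92 and 8.67 in the mutants. Both mutant values lay between the controls. The mutant differed by a log2 fold change of -0.14 (SE 0.23, edgeR adjusted p = 0.831), with a 95% interval from a 0.619-fold to a 1.34-fold level in the mutant. The interval leaves out a change of the size seen for Pmaip1 but not one of the size of Bax. Within a sample, the RPKM of Bbc3 was 59.0 and 19.7 times that of Pmaip1 in the controls and 2.60 and 2.48 times in the mutants.

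Bax (Entrez Gene 12028) encodes the pore-forming effector on which the BH3-only proteins converge. The RPKM was 74.4 and 86.1 in the controls and 93.5 and 114 in the mutants. Both mutants were above both controls, by a gap of 0.12 on the log2 scale between the nearest samples, which was smaller than the difference between the mutants (0.25). Bax had a log2 fold change of 0.33 (SE 0.15, edgeR adjusted p = 0.345), and the 95% interval of the fold, 0.988 to 1.60, included no change. It ranged from 0.20 without mutant replicate 2 to 0.45 without mutant replicate 1.

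Among the death receptors, Fas (Entrez Gene 14102) encodes the receptor of FAS ligand. The RPKM was 4.96 and 5.64 in the controls and 6.67 and 11.8 in the mutants. Mutant replicate 2 stood apart, and mutant replicate 1 lay closer to the controls than to it. Fas had a log2 fold change of 0.75 (SE 0.29, edgeR adjusted p = 0.275), and without mutant replicate 2 it was 0.31. Fas is also expressed by leukocytes. Of the 12 macrophage and leukocyte markers, 10 were tested. At an unadjusted p under 0.05 in edgeR, 4 were lower and 0 higher in the mutant, beside 6.28% and 9.29% of all genes tested. The summed RPKM of the 12 markers was 27.3 and 24.45 in the controls and 13.0 and 18.45 in the mutants. The part of leukocytes in the Fas values was not tested.

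Tnfrsf10b (Entrez Gene 21933) encodes the mouse receptor for the ligand TRAIL. It had an RPKM of 20.1 and 27.8 in the controls and of 22.7 and 27.7 in the mutants. The ranges overlapped and the highest value of each group was almost the same. Tnfrsf10b had a log2 fold change of 0.03 (SE 0.18, edgeR adjusted p = 0.951), with a 95% interval of the fold from 0.761 to 1.38, and its sign turned without control replicate 1 (-0.16) or without mutant replicate 2 (-0.10). Tnfrsf10b was still the most abundant of the 3 receptors, at 2.35 to 4.93 times the RPKM of Fas within the same sample.

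Eda2r (Entrez Gene 245527) encodes the receptor of ectodysplasin A2 and lies on the X chromosome. It had an RPKM of 2.55 and 4.01 in the controls and of 6.02 and 7.02 in the mutants. The mutants were close to each other and above both controls. Eda2r had a log2 fold change of 0.95 (SE 0.22, edgeR adjusted p = 0.122; DESeq2 adjusted p = 0.00860). Without mutant replicate 2, the sample with Xist reads, it was 0.86 (edgeR adjusted p = 0.249), and the remaining mutant was above both controls. Eda2r is also known from muscle. Of 14 striated muscle markers, 13 were tested. At an unadjusted p under 0.05 in edgeR, 8 were higher and 0 lower in the mutant, beside 9.29% and 6.28% of all genes tested. The summed RPKM of the muscle list was 133.4 and 42.2 in the controls and 235.4 and 261.8 in the mutants. Both mutants were above both controls and stood in the same order as for Eda2r, while the controls stood in the opposite order. The part of muscle cells in the Eda2r values was not tested.

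Of the ligands of the 3 receptors, Fasl had no read in any sample. Tnfsf10, which encodes TRAIL, had an RPKM of 0.404 and 0.503 in the controls and of 0.724 and 0.888 in the mutants (log2 fold change 0.78, SE 0.28, edgeR adjusted p = 0.251). Eda had an RPKM of 1.64 to 1.68 in all 4 samples, and the gene-level value does not separate the A1 and A2 forms of its product. There were thus no reads of Fasl, few of Tnfsf10 and more of Eda in both genotypes. Proteins or ligands from other cells were not measured.

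Of the other genes, Perp (Entrez Gene 64058) encodes a membrane protein that promotes p53-dependent death and is also a component of desmosomes, the junctions of epithelial cells. It had 16 and 103 reads in the controls and 176 and 399 in the mutants, or RPKM values of 0.400 and 2.07 against 2.99 and 7.43. Both mutants were above both controls, but the controls differed from each other by 2.31 on the log2 scale, more than the groups did. The log2 fold change was 2.01 (SE 0.70, edgeR adjusted p = 0.240; DESeq2 adjusted p = 0.441). It was 1.24 without mutant replicate 2, 1.30 without control replicate 1 and 3.58 without control replicate 2. No fit gave Perp an adjusted p under 0.05, and the nearest was that with the replicate block (edgeR adjusted p = 0.0516).

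Epithelial and desmosome markers were also higher in the mutants in sum. Their summed RPKM over the list of 19 genes, of which Dsg3 had no read, was 5.94 and 14.2 in the controls. It was 25.6 and 33.6 in the mutants, the same order of the 4 samples as that of Perp. Pmaip1, Bax, Fas, Aen, Zmat3 and Eda2r had this order too, while Bbc3, Tnfrsf10b and Trp53inp1 did not. Of the 9 markers tested, 5 were higher in the mutant at an unadjusted p under 0.05 in edgeR, beside 9.29% of all genes tested. Both mutants were above both controls for 7 of the 9, beside 25.4% of all genes tested. Dsp, Epcam and Pkp3 reached 10 reads only in the mutants, so they passed the count filter only through that group. Dsp and Epcam were among the 5, and all of these genes were among the 7. Krt18, a keratin of simple epithelia, was the most abundant, with an RPKM of 3.47 and 9.24 in the controls and of 19.5 and 24.1 in the mutants. The keratinocyte keratins Krt5 and Krt14, named here after their values were seen, had 0 to 1 and 1 to 12 reads per sample, and Krt19, the next most abundant, had a log2 fold change of 0.52 with overlapping groups. The part of epithelial cells in the Perp values was not tested.

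**Figure D2:**
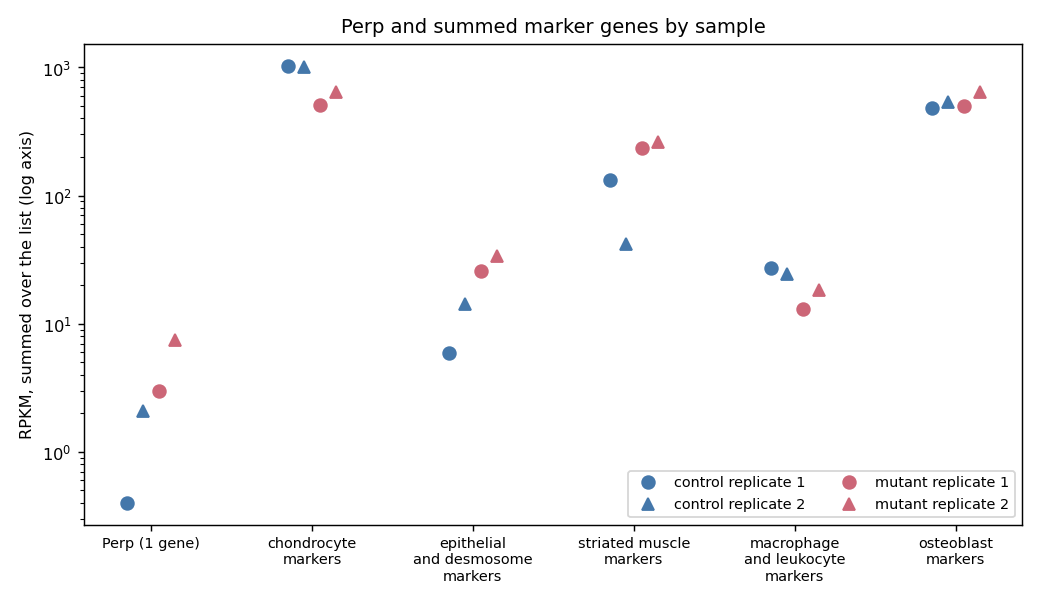
RPKM of Perp and the summed RPKM of 5 marker lists in each sample (log axis). Blue marks are controls, red marks mutants, circles replicate 1 and triangles replicate 2. Perp and the epithelial and desmosome list place the 4 samples in the same order, from control replicate 1 (0.400 for Perp) to mutant replicate 2 (7.43). Pmaip1, Bax, Fas, Aen, Zmat3 and Eda2r, not shown here, had the same order.

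Trp53inp1 (Entrez Gene 60599) encodes a nuclear protein that promotes the phosphorylation and activity of p53. The RPKM was 8.57 and 7.74 in the controls and 11.4 and 12.9 in the mutants. Here control replicate 1 was the higher control, unlike for most of the 10 genes, and the groups were well apart. The log2 fold change was 0.53 (SE 0.14, edgeR adjusted p = 0.159).

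Aen (Entrez Gene 68048) encodes a nuclease that takes part in the breakdown of DNA in apoptosis. It had an RPKM of 16.8 and 21.6 in the controls and of 28.2 and 34.9 in the mutants. The lowest mutant was above the highest control by 0.39 on the log2 scale, a wider gap than either pair of replicates showed. Aen had a log2 fold change of 0.68 (SE 0.17, edgeR adjusted p = 0.136; DESeq2 adjusted p = 0.0220).

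Zmat3 (Entrez Gene 22401) encodes a zinc finger protein that binds RNA and regulates splicing and the stability of transcripts. Its RPKM was 10.2 and 14.4 in the controls and 20.2 and 23.2 in the mutants, and it had the most reads of the 10 genes in each sample (1670 to 5098). The groups did not overlap, and the gap of 0.50 between the nearest samples on the log2 scale was wider than the difference within either group. Zmat3 had a log2 fold change of 0.78 (SE 0.17, edgeR adjusted p = 0.117; DESeq2 adjusted p = 0.00409). Its p was the smallest of the 10 genes after that of Pmaip1.

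**Figure D3:**
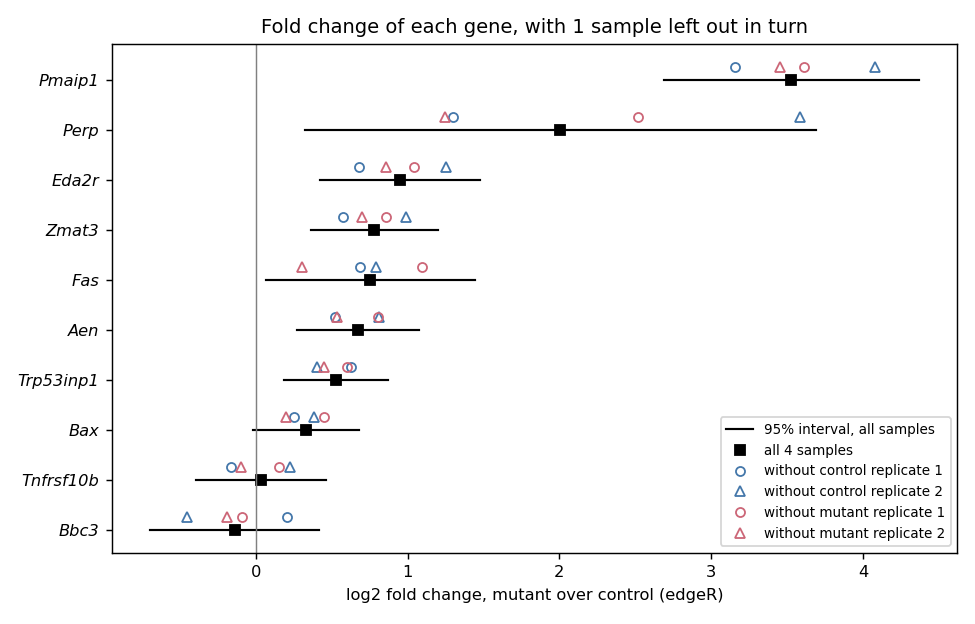
Log2 fold change of the 10 genes from the edgeR fit. Black squares are the values with all 4 samples and black lines their 95% intervals, and open marks are the values with 1 sample left out (blue for a control, red for a mutant, circle for replicate 1 and triangle for replicate 2). Pmaip1 stays between 3.16 and 4.08, while Perp moves between 1.24 and 3.58, and Bbc3 and Tnfrsf10b lie on both sides of 0.

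The samples of a group were not alike across the 10 genes. Control replicate 1 had the lowest normalised count of the 4 samples for 8 of the 10 genes, which was so for 36.7% of all genes tested. Mutant replicate 2 had the highest for 8 of the 10, against 26.2% of all genes tested. Where both mutants lie above both controls, the lowest sample must be a control and the highest a mutant. This held for 8 of the 10 genes but for 25.4% of all genes tested, so these shares partly restate the difference between the groups. For 3 of the 10 genes (Bbc3, Perp and Tnfrsf10b) the controls differed by more than the log2 fold change between the groups. In bulk samples, fewer cells of a type and less RNA per cell cannot be told apart.

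**Figure D4:**
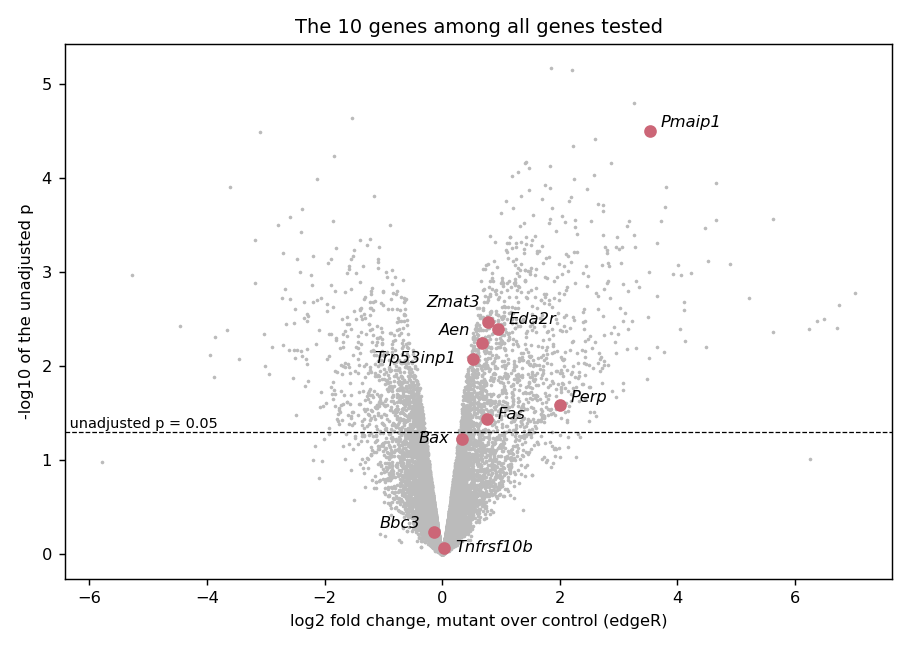
Log2 fold change between mutant and control against -log10 of the unadjusted p of edgeR for the 14123 genes tested (grey) and the 10 genes (red, with names). The dashed line is an unadjusted p of 0.05, above which 7 of the 10 lie, and Pmaip1 stands far to the right at 3.53.

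The other genes of the pathway give the setting of these values. Trp53 itself had an RPKM of 102 and 127 in the controls and of 119 and 124 in the mutants (log2 fold change 0.05, SE 0.14, edgeR adjusted p = 0.911). Of 30 listed genes for p53, its regulators and its other targets, all were tested, 9 had an unadjusted p under 0.05 and a higher level in the mutant, and 2 a lower one, beside 9.29% and 6.28% of all genes tested. None passed an adjusted p of 0.05 in edgeR. The median log2 fold change was 0.26, and 19 of the 30 had both mutants above both controls and 4 both below, beside 25.4% and 22.8% of all genes tested. The 3 smallest p values belonged to Ephx1, Cdkn1a and Btg2. Cdkn1a encodes the cell cycle inhibitor p21, and its RPKM was 57.7 and 84.6 in the controls and 122 and 176 in the mutants (log2 fold change 1.02, SE 0.23, edgeR adjusted p = 0.115). Mdm2, whose product degrades p53, had an RPKM of 15.5 and 22.1 in the controls and of 30.1 and 39.6 in the mutants (log2 fold change 0.85, SE 0.20, edgeR adjusted p = 0.125). Ephx1 encodes an epoxide hydrolase and Btg2 an anti-proliferative protein, with log2 fold changes of 0.78 and 0.95. The genes with a lower level, named after their values were seen, were the stress protein gene Sesn1 (log2 fold change -0.73) and the autophagy gene Dram1 (-0.59).

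Other genes of the BCL2 family and the apoptosome did not share one direction. Of 18 genes of the BCL2 family and the apoptosome, 15 were tested, 2 had an unadjusted p under 0.05 and a higher level in the mutant, and 3 a lower one, beside 9.29% and 6.28% of all genes tested, with a median log2 fold change of -0.07. Bcl2l1, which encodes the anti-apoptotic BCL-XL, had an RPKM of 19.1 and 21.6 in the controls and of 29.1 and 35.4 in the mutants (log2 fold change 0.62, SE 0.14, edgeR adjusted p = 0.123). The other anti-apoptotic BCL2 genes tested, named after their values were seen, were Mcl1 (log2 fold change 0.21), Bcl2l2 (-0.02) and Bcl2 (-0.23). Bid, which encodes a BH3-only protein cleaved by caspase 8, had a log2 fold change of 0.53 (SE 0.17, edgeR adjusted p = 0.208). Bmf, another BH3-only gene, had an RPKM of 9.02 and 4.43 in the controls and of 3.26 and 2.67 in the mutants (log2 fold change -1.23, SE 0.34, edgeR adjusted p = 0.169). The other lower genes, named after their values were seen, were the BH3-only gene Bcl2l11 (log2 fold change -0.65) and the initiator caspase gene Casp9 (-0.49). Of 11 genes for receptor ligands, adaptors and caspases, 10 were tested and 1 (Tnfsf10) was higher at an unadjusted p under 0.05, a share close to the 9.29% of all genes tested. Their median log2 fold change was 0.05. The adaptor genes Tradd and Fadd had log2 fold changes of -0.33 and -0.21 (SE 0.16 and 0.15).

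**Figure D5:**
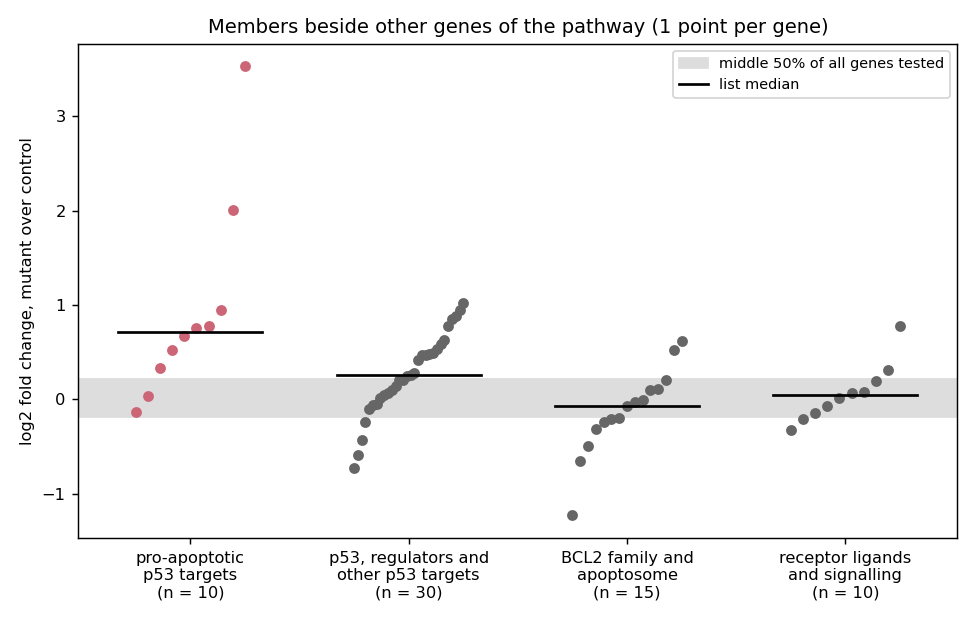
Log2 fold change between mutant and control of each tested gene (1 point per gene) for the 10 genes and 3 lists of other pathway genes. Black lines are the medians (0.71, 0.26, -0.07 and 0.05 from left to right), and the grey band holds the middle 50% of all genes tested.

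Markers of the cultured cells differed between the genotypes beside these values. All 12 chondrocyte markers had both mutants below both controls, beside 22.8% of all genes tested. At an unadjusted p under 0.05 in edgeR, 11 were lower, beside 6.28% of all genes tested. The summed RPKM of the 12 markers was 1030 and 1015 in the controls and 513.4 and 645.0 in the mutants. Col2a1, the main collagen of cartilage, was the most abundant of them in the mean, at 609 and 659 in the controls and 334 and 445 in the mutants, so this defining marker was abundant in all 4 samples. The next was Col11a1, with a log2 fold change of -0.56. Of the muscle markers Acta1 and Des were the most abundant, with log2 fold changes of 1.25 and 1.58. The leukocyte genes Lyz2 and Cd68 had log2 fold changes of -1.43 and -0.38. Of 8 osteoblast markers, 5 were tested. At an unadjusted p under 0.05 in edgeR, 3 were lower and 0 higher, beside 6.28% and 9.29% of all genes tested. The most abundant osteoblast markers were Spp1 (log2 fold change 0.43) and Alpl (-2.06). The 9 endothelial markers had a summed RPKM of 1.15 to 1.90, led by Kdr and Tek, with log2 fold changes of 1.32 and -1.74. The 8 erythroid markers had a summed RPKM of at most 0.416, led by Alas2 and Epb4.2, and none was tested. The part of these other cells in the values of the 10 genes was not tested.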

How the data were processed

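RNA was sequenced from 2 mutant and 2 control cultures with oligo(dT)-selected libraries. Per the file headers, the deposited values are the count of reads on a gene (not normalised), the RPKM (that count scaled by gene length and by all reads on genes) and the coverage, as the percent of a gene's length with reads. The submitters' processing notes name SAMtools and mm9, while the aligner, counter and annotation are not given in the sources used here. A gene absent from a sample's list was given a count of 0. Counts were tested with edgeR 4.0.16 (R 4.3.3), with TMM factors of 0.966 to 1.03 and robust quasi-likelihood, over 14123 genes (a minimum of 10 counts in any 2 samples). SE and 95% intervals were derived from the F statistic and its degrees of freedom. Groups were taken to overlap or not by TMM-scaled counts. The script was checked on simulated counts with 200 changed genes. Replicate pairs differed far beyond sampling noise (chi-square over degrees of freedom 48.6 and 23.7), so each sample was counted separately. Alternatives used DESeq2 1.42.0 and limma 3.58.1 on log2(RPKM + 1) and log2(RPKM + 0.1). The 10 genes and the lists were chosen with earlier results of these data known. Named were each of the 10 genes, the 3 smallest p values of each pathway list, the receptor ligands, Trp53, Mdm2, Cdkn1a, Senp6, and the 2 most abundant genes of each marker list. Promoter windows came from RefSeq (GRCm38.p6), a later build than mm9, matched by gene symbol. Whether counting used strand is not given in the sources used here, so reads of overlapping genes may not be told apart.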

Additional observations from a re-analysis of the deposited data

How the results depend on the processing

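The number of the 10 genes with an adjusted p under 0.05 and a higher level in the mutant was 0 in edgeR with TMM, and also with size factors of the DESeq2 method in edgeR, with at least 10 counts in every sample and with limma at either pseudocount. It was 4 with DESeq2, 1 without a filter on low counts and 1 with the replicate block. Leaving out 1 sample gave 1 to 5, and the share of all genes moved too. It was 1 beside 0.68% without mutant replicate 2, 2 beside 2.36% without mutant replicate 1, 4 beside 3.72% without control replicate 1 and 5 beside 9.42% without control replicate 2, from fits in which the lone sample of a group is assumed to vary like the other group. The number lower in the mutant was 0 in every fit. At an unadjusted p, a count added after the data were seen, the number higher ranged from 3 to 6 with 1 sample left out, lowest without mutant replicate 2, against 7 with all samples, and it was 6 or 7 under the other alternatives. The median log2 fold change of the 10 genes lay between 0.49 and 0.83 with 1 sample left out and between 0.67 and 0.73 otherwise. Of the single-gene values under the alternatives, 89 kept their sign and their side of the threshold, 18 passed an adjusted p of 0.05 that was missed with all samples in edgeR, and 3 turned sign with 1 sample left out, for Bbc3 (-0.45 to 0.20) and Tnfrsf10b (-0.16 to 0.23). On log2(RPKM + 1), Pmaip1 had a log2 fold change of 1.75, since a pseudocount shrinks the fold of low genes. Across genes, the replicate differences of the control pair and of the mutant pair had a correlation of -0.0422. This value cannot settle whether samples with the same replicate number shared a litter or batch. With the replicate block, 84 genes were higher and 33 lower at an adjusted p under 0.05, against 0 without it. No test of a sample that stands apart was possible with 2 per group. At the lowest depth, Pmaip1 and Perp rest on 10 and 16 reads.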
